A study of Mus musculus with 8 samples.

Results

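The β-cells described here were those that the deposited annotation named as β-cells and placed in cluster 1. They numbered 851 of the 6959 cells in the data set, 305 of 3776 vehicle cells and 546 of 3183 FAKi cells. The annotation held 2412 β-cells in all, of which 1325 lay in cluster 0 and 236 in cluster 10. The cells came from islets picked by hand from wild-type mice of both sexes and were profiled by droplet-based scRNA-seq, in which each transcript copied from a cell carries a unique molecular identifier (UMI).

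FAKi was PF562271, an inhibitor of focal adhesion kinase (FAK, the product of *Ptk2*). Mice aged 6 to 12 weeks at the start were given 50 mg/kg by mouth at each of 2 daily doses over 3 weeks, and the other group received the vehicle on the same schedule. Dosing ended 10 days before the islets were isolated, and each library pooled 5 mice, so that single mice cannot be told apart. The 8 samples were read as 4 sequencing lanes of each library from their titles, which end in L001 to L004, and the deposited cells are divided by condition only, so that each condition was treated as 1 library. No difference below was tested across mice, and every interval covers counting error only.

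β-cells make insulin from the genes *Ins1* and *Ins2*, store it in dense-core granules and release it when glucose rises. Acinar cells, the main cell type of the pancreas around the islets, make the digestive enzymes and their precursors, such as trypsinogens, elastases, carboxypeptidases and lipases, under the PTF1 complex, in which PTF1A is joined by RBPJL. When pancreatic tissue is dissociated, RNA from broken acinar cells can enter droplets that hold other cells.

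The names given for cluster 1 held both kinds of gene, namely *Ins1*, *Ins2* and *Iapp* (amylin, secreted with insulin) beside *Prss2* (a trypsinogen) and *Cpa1* (carboxypeptidase A1). In GRCm38, *Prss2* lies at chr6:41521787-41525079 and *Cpa1* at chr6:30639218-30645363, both on the plus strand. *Iapp* lies at chr6:142298423-142303961 and *Ins1* at chr19:52264297-52265476, also on the plus strand, and *Ins2* at chr7:142678656-142743381 on the minus strand. All of these are annotated as protein-coding genes.

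The promoters of *Prss2* and *Ins1* are shown because the cluster is defined by transcripts of an enzyme gene and a hormone gene in the same droplets. Each is the 250 bases before the start of the RefSeq gene on the plus strand of GRCm38.p6, *Prss2* at chr6:41521526-41521775 and *Ins1* at chr19:52264047-52264296. Capitals mark CACCTG, an E-box form, and TGGGAA, the core of the box bound by the RBPJL part of PTF1, searched on both strands.
Prss2: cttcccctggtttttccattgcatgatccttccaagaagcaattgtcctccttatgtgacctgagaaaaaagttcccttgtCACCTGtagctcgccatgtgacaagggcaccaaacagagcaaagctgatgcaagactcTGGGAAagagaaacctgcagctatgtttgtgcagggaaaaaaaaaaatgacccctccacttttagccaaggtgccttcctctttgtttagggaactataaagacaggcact
Ins1: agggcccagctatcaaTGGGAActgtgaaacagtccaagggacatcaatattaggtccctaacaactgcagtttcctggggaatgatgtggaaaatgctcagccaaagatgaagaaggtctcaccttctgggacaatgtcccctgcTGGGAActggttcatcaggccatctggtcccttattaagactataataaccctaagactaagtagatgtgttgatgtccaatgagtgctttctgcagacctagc

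The *Prss2* window held 1 copy of each motif, and the *Ins1* window held none of CACCTG and 2 of TGGGAA. Among the 33 acinar enzyme genes with a promoter entry, 9 (27.3%) held both motifs, compared with 2 of 43 (4.65%) β-cell gene promoters and 3.91% of all 32851 promoters of the same length. CACCTG alone was found in 51.5% of the acinar enzyme promoters and 17.2% of all promoters, and TGGGAA in 54.5% and 21.6%. Trypsinogen genes are near copies of each other, so their promoters are not separate examples. These are matches of letters and not mapped binding sites.

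Cells of cluster 1 carried the β-cell hormone transcripts at levels within 1.14-fold of those in cluster 0. *Ins2* was at 401439 CPM (the UMIs of a gene per 1000000 UMIs of all genes, summed over the cells of the group) in cluster 1 and 401354 in cluster 0 of the vehicle library, and 416602 and 408223 in the FAKi library. *Ins1* was at 154365 CPM against 162182 in vehicle cells and 150887 against 159776 in FAKi cells, a ratio of 0.952 and 0.944. *Iapp* was 1.14-fold and 1.07-fold higher in cluster 1. *Ins1* and *Ins2* are near copies, and reads shared between them could have been assigned to either. The label itself was the depositors', and hormone levels are given as a description of it.

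The acinar markers of the label set the cluster apart. *Prss2* was at 1265 CPM in cluster 1 and 24.2 in cluster 0 with vehicle, or 52.2-fold higher (95% interval 47.9 to 57.0). With FAKi it was at 1107 and 47.3 CPM, or 23.4-fold higher (22.02 to 24.9). *Cpa1* was at 575 against 10.7 CPM, 53.8-fold (47.3 to 61.5), in vehicle cells and at 493 against 19.4 CPM, 25.4-fold (23.1 to 28.0), in FAKi cells. Because the clusters were drawn on these same transcripts, the difference between clusters 1 and 0 is a description of how the cells were divided and is given without a test.

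Cluster 1 was shallower than cluster 0. The median cluster 1 cell held 20070 UMIs with vehicle and 16908 with FAKi, compared with 34677 and 34237 in cluster 0, and the range in cluster 1 ran from 519 to 84536 and from 513 to 68134. Detected genes had medians of 3257 and 2993.5, against 4546.5 and 4466. In cluster 1, 38 vehicle cells and 68 FAKi cells, 12.5% in each library, had fewer than 1000 detected genes, and no cell of cluster 0 did. The mitochondrial share did not follow this gap, with medians of 3.90% and 3.98% in cluster 1 against 4.08% and 3.85% in cluster 0. Doublets were called for 2 vehicle cells (0.656%) and 8 FAKi cells (1.47%) of cluster 1, for none of cluster 0 and for 12 and 18 cells of cluster 10. The libraries shared 4 cell barcodes, none of them in cluster 1.

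Acinar transcripts were spread over most cells of the cluster. The 44 genes of the acinar enzyme list made up a median of 0.999% of the UMIs of a vehicle cell (quartiles 0.349% to 2.08%, highest cell 19.5%) and 1.11% of a FAKi cell (0.495% to 1.88%, highest 16.3%). In cluster 0 the medians were 0.0156% and 0.0327%. The 95th percentile of cluster 0 was exceeded by 265 vehicle cells (86.9%) and 513 FAKi cells (94.0%) of cluster 1. In the other direction, 1 vehicle cell and 0 FAKi cells of cluster 0 lay above the median of cluster 1, while 14 and 7 cells of cluster 1 lay at or below the median of cluster 0. The groups thus overlapped at the edges only. The load was uneven within the cluster, and the tenth of its cells with the most acinar UMIs (31 and 55 cells) held 47.4% and 41.2% of the 99769 and 130700 acinar UMIs.

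**Figure D1:**
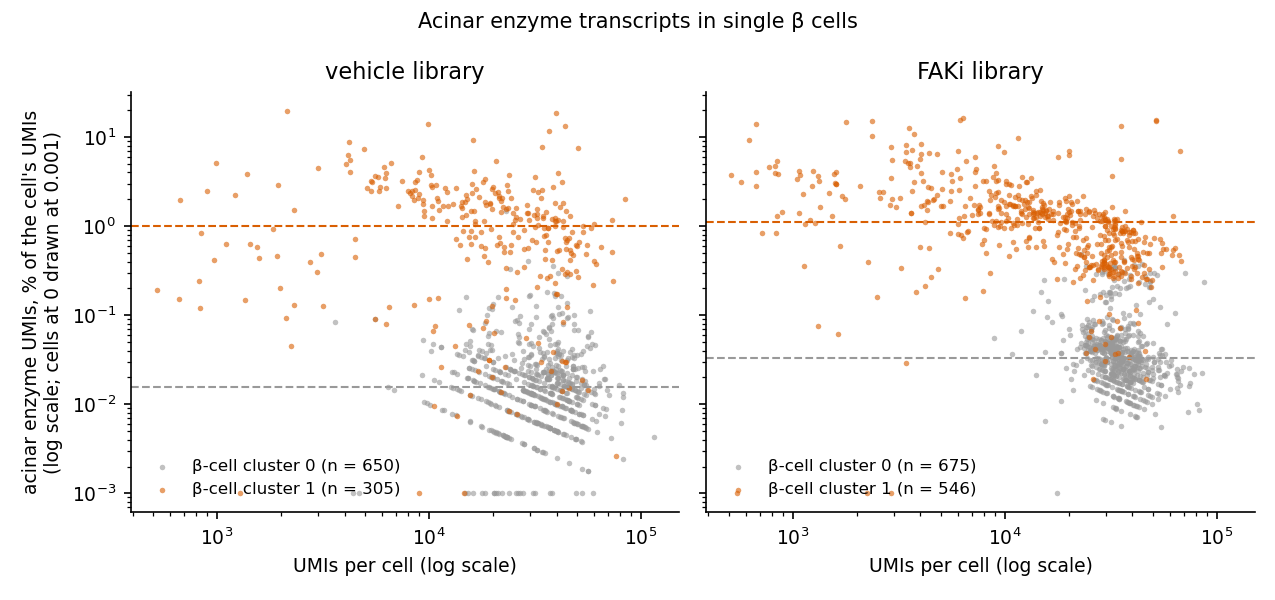
Acinar enzyme UMIs as a percent of all UMIs of a cell (log axis) against the UMIs of the cell (log axis), for each cell of β-cell clusters 1 and 0 in the vehicle and FAKi libraries, with dashed lines at the medians and cells at 0 drawn at 0.001%. The medians of cluster 1 lie at 0.999% and 1.11% and those of cluster 0 at 0.0156% and 0.0327%, and cells of cluster 1 extend to under 1000 UMIs.

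The acinar transcripts per droplet were also set beside cell types that do not make them. In endothelial cells, macrophages and B cells, pooled as reference cells (785 vehicle and 333 FAKi cells, median depth 5646 and 4879 UMIs), the median droplet held 6 and 14 acinar UMIs. The median was 202 and 165 in cluster 1, and 5 and 12 in cluster 0. The distributions overlapped, since the 95th percentile of the reference cells was 280.4 and 301 acinar UMIs, above the median cell of cluster 1, and their highest cells held 1297 and 15633. As a share of UMIs the reference cells had 0.111% and 0.330%, between the β-cell clusters. When each cell was thinned to 5000 UMIs, leaving out 39 vehicle and 101 FAKi cells of cluster 1, and 337 and 175 of the reference cells (448 and 158 deeper ones remained), *Prss2* was detected in 82.7% and 89.2% of cluster 1, 9.43% and 19.6% of cluster 0 and 41.5% and 58.2% of the reference cells. Without thinning the shares were 86.6% and 96.0%, 41.4% and 63.3%, and 47.4% and 71.8%. *Cpa1*, thinned alike, was detected in 71.1% and 71.5% of cluster 1 against 28.1% and 40.5% of the reference cells. Both genes are acinar transcripts, on which the clusters themselves were drawn, so that a higher share in cluster 1 than in unselected cells was fixed by the choice of cells and says nothing of background RNA. *Gcg* (glucagon, the α-cell hormone) was detected in 50% and 73.7% of thinned cluster 1 cells against 56.5% and 93.0% of the reference cells.

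Acinar UMIs were fewest in the shallowest cells and did not rise steadily with depth. Cells were divided at 2000, 5000, 10000, 20000 and 40000 UMIs. From the shallowest bin to the deepest, the median number of acinar UMIs in cluster 1 was 7, 33.5, 181.5, 189, 324 and 256.5 in vehicle cells. In FAKi cells it was 33, 86, 132, 202.5, 169 and 235.5. Cells of cluster 0 with 20000 to 40000 UMIs had medians of 4.5 and 11. The gap between the clusters was thus present in that range of depth. Over the cells of cluster 1, Spearman's rho of the acinar share with total UMIs was -0.25 over 305 vehicle cells and -0.58 over 546 FAKi cells, and the total is the denominator of the share. With the mitochondrial share rho was -0.04 and 0.07. The part of free RNA in these values was not tested.

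Across all genes, a small set separated cluster 1 from cluster 0. Of 10830 genes with at least 100 UMIs over the groups compared, 38 (0.351%) were more than 2-fold higher in cluster 1 in both libraries on the log2(CPM + 1) scale, and 2 (0.0185%) were more than 2-fold lower. The median over all these genes was -0.09 in vehicle cells and -0.07 in FAKi cells on the log2 scale. Of the 38, 30 were acinar enzyme genes, 5 were of the haemoglobin list (the globins *Hba-a1*, *Hba-a2*, *Hbb-bs* and *Hbb-bt*, and *Alas2* of haem synthesis), and the others were *Pdia2*, *Cd24a* and *Reg2*. The 30 were those acinar enzyme genes that reached 100 UMIs, and they reached it mainly through cluster 1, so that their number is a description only. Of the other 14 genes of the list, 11 had fewer UMIs (156 in all in vehicle cluster 1 and 161 in FAKi cluster 1) and 3 were not in the table by the name used.

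**Figure D2:**
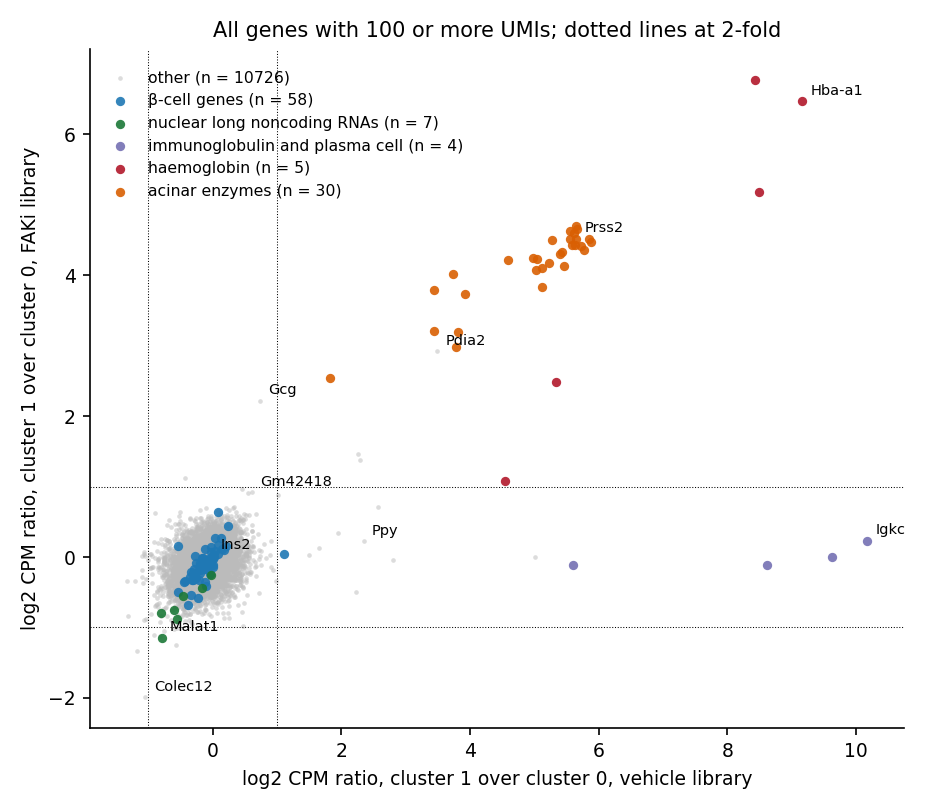
Log2 CPM ratio of cluster 1 over cluster 0 for each gene with at least 100 UMIs, vehicle library on the x axis and FAKi library on the y axis, with dotted lines at 2-fold. The acinar enzyme genes form a separate cloud (medians 5.33 and 4.27), 3 of the 5 haemoglobin genes lie further out in both libraries, and *Malat1*, *Colec12* and *Tsix* lie at the low end.

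Digestive proteases and lipases were higher in cluster 1. The median log2 ratio of the 30 measured genes over cluster 0 was 5.33 (range 1.82 to 5.88) in vehicle cells and 4.27 (2.55 to 4.69) in FAKi cells. Among the proteases, *Try4* (a trypsinogen) was 60.9-fold and 22.5-fold higher, *Ctrb1* (chymotrypsinogen) 48.2-fold and 25.0-fold, *Cela1*, *Cela2a* and *Cela3b* (elastases) 61.6-fold, 54.1-fold and 53.3-fold with vehicle and 23.6-fold, 26.2-fold and 27.1-fold with FAKi, and *Cpb1* (carboxypeptidase B1) 41.6-fold and 18.8-fold. In fat digestion, *Pnlip* (pancreatic lipase) was 51.9-fold and 22.05-fold higher, and *Clps* (colipase) 44.0-fold and 20.4-fold. *Gp2*, a membrane protein of zymogen granules, had 88 and 207 UMIs in cluster 1 and 5 and 11 in cluster 0. *Reg1*, a lithostathine secreted by acinar cells, was 40.3-fold and 15.2-fold higher. The ratios of the genes named here were lower in the FAKi library, where cluster 0 held 526 CPM of acinar transcripts in sum, against 268 CPM in the vehicle library. Trypsinogens are near copies of each other, and the split of reads among them is uncertain.

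Outside the enzyme list, *Pdia2*, a protein disulfide isomerase of the exocrine pancreas, had 106 and 186 UMIs in cluster 1 against 9 and 34 in cluster 0, a ratio of 37.0 (18.8 to 83.1) and 12.3 (8.48 to 18.3). *Reg2*, a lithostathine found in acinar cells and stressed islets, was 9.77-fold (5.66 to 17.7) and 10.3-fold (3.84 to 34.8) higher on 56 and 23 UMIs. *Cd24a*, a surface protein common on immature and blood cells, was 9.79-fold and 8.14-fold higher on 53 and 29 UMIs. Without the cells of mixed content described below, it had 8 and 24 UMIs and stood at 0.28 and 1.30 on the log2 scale. *Rbp4*, a retinol carrier on the list of immature β-cell genes, was 2.23-fold (1.65 to 3.01) and 1.95-fold (1.59 to 2.39) higher. *Rgs5*, a marker of pericytes, was 6.17-fold (3.85 to 10.1) and 1.62-fold (0.730 to 3.50) higher on 55 and 13 UMIs. *Gm42418*, a locus that overlaps ribosomal RNA sequence, was 1.52-fold and 1.89-fold higher.

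The mixture of enzymes in cluster 1 was compared with that of the acinar cells of the same data, over 21 acinar genes that each made up at least 0.5% of the acinar UMIs in every group. In the acinar cluster numbered 4 in the deposit, shares of single genes differed from those of cluster 1 by a median of 0.12 (vehicle) and 0.11 (FAKi) on the log2 scale within a library, and by 0.21 across libraries in both directions. *Ctrb1* made up 13.5% of the acinar UMIs of cluster 1 in vehicle cells and 16.4% in FAKi cells, and 14.2% and 16.7% in acinar cluster 4. *Try4* made up 13.4% and 10.3% in cluster 1, and 12.1% and 10.0% in acinar cluster 4. *Try5* made up 2.70% and 4.75%, against 2.67% and 3.95%. In acinar cluster 13 the median difference was 0.25 and 0.17 within a library and 0.35 and 0.22 across. The enzyme mixture of cluster 1 was thus nearer to the acinar cells of its own library. The endothelial, macrophage and B cells differed from cluster 1 by a median of 0.05 in vehicle cells and 0.22 in FAKi cells, and cluster 0 by 0.18 and 0.13. Across libraries the reference cells differed from vehicle cluster 1 by 0.28 and from FAKi cluster 1 by 0.20. For cluster 0 these values were 0.26 and 0.16. FAKi cluster 1 was thus no nearer to the reference cells of its own library. The closest mixture in the FAKi library among those compared was that of α-cell cluster 9, at 0.06, and it was also 0.06 in the vehicle library. Whether the transcripts were made in these cells or entered the droplets from outside was not tested.

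**Figure D3:**
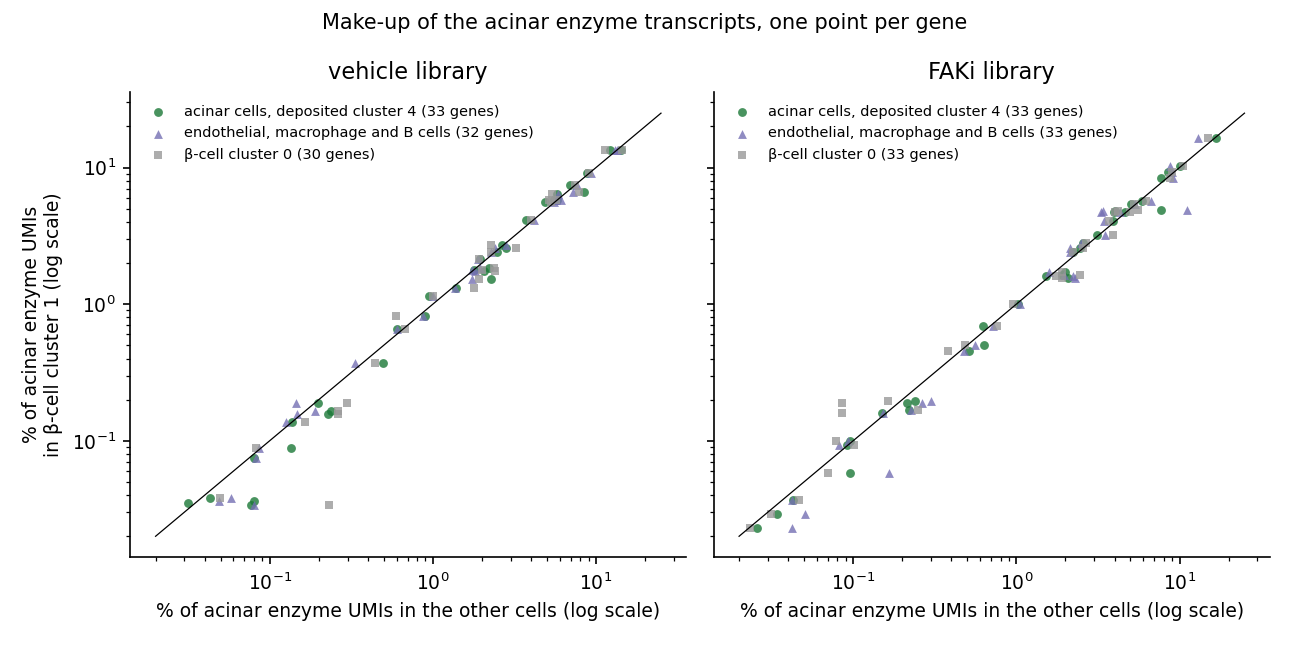
Share of each acinar enzyme gene in the acinar UMIs of β-cell cluster 1 (y axis, percent, log scale) against its share in acinar cluster 4, in the endothelial, macrophage and B cells and in β-cell cluster 0 of the same library (x axis, percent, log scale), with a line of equal shares and 1 point per gene above 0 in both. The abundant genes lie near the line, and over 21 of them the median distance from acinar cluster 4 is 0.12 (vehicle) and 0.11 (FAKi) on the log2 scale.

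Transcription factors of acinar cells were too rare for a firm statement. *Ptf1a* had 3 UMIs in vehicle cluster 1 and 6 in FAKi cluster 1. Per 10000 acinar enzyme UMIs this was 0.301 (0.0620 to 0.879) and 0.459 (0.168 to 0.999), compared with 0.417 (0.304 to 0.558) and 0.453 (0.343 to 0.587) in acinar cluster 13 and with 0.842 (0.491 to 1.35) and 0.268 (0.123 to 0.509) in acinar cluster 4. *Rbpjl* had 6 and 10 UMIs, 0.601 and 0.765 per 10000, against 0.426 and 0.644 in acinar cluster 13 and 0.793 and 0.626 in acinar cluster 4. The counting intervals of these rates overlapped. *Nr5a2*, a nuclear receptor of acinar cells, had 0 and 1 UMIs in cluster 1, and a count of 0 allows up to 3. *Bhlha15* (Mist1, a factor of secretory cells) was as abundant in cluster 0 as in cluster 1, at 22.5 and 22.8 CPM against 21.9 and 21.5.

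β-cell identity genes as a list were close to the median of all genes. Of the 63 β-cell genes listed, 58 had at least 100 UMIs, and their median log2 ratio over cluster 0 was -0.11 and -0.10, next to -0.09 and -0.07 over all genes. None was past 2-fold in both libraries, 36 were lower and 14 higher in both, and of all 10830 genes 48.7% were lower and 19.4% higher in both. Among 17 transcription factors the medians were -0.22 and -0.18, with 13 lower in both libraries. *Pdx1*, which drives insulin transcription, was at 126 against 147 CPM (ratio 0.859, 0.798 to 0.925) in vehicle cells and at 122 against 139 CPM (0.882, 0.827 to 0.9397) in FAKi cells. *Mafa*, a factor of mature β-cells, had ratios of 0.807 and 0.855, *Nkx6-1* 0.820 and 0.888, and *Neurod1* 0.731 and 0.782.

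Among the 16 genes of glucose sensing and excitability, *Slc2a2* (the glucose transporter GLUT2) had ratios of 0.783 and 0.825 and *G6pc2* (glucose-6-phosphatase of islets) 0.832 and 0.809. *Abcc8* (the SUR1 subunit of the ATP-sensitive potassium channel) had ratios of 1.03 and 1.06. The granule genes had medians of -0.04 and -0.02. *Chga* (chromogranin A) was level with cluster 0, at 4564 against 4558 CPM and 4474 against 4445 CPM. *Pcsk1*, the proinsulin convertase, had ratios of 0.822 and 0.805. *Ucn3* (urocortin 3, a mature β-cell peptide) was at 250 against 259 CPM in vehicle cells and at 250 against 212 CPM in FAKi cells, on different sides of 1. In the list of immature or dedifferentiated β-cell genes, 8 of 13 members had enough UMIs and their medians were 0.39 and 0.45, led by *Cd24a*, *Rbp4* and *Gpx3* (glutathione peroxidase 3, 1.38-fold and 1.98-fold). Without the cells of mixed content described below, the medians of this list over 7 genes were 0.28 and 0.07.

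A list of RNAs kept in the nucleus was lower in cluster 1. All 7 measured nuclear long noncoding RNAs were lower in cluster 1 in both libraries, as were 48.7% of all 10830 genes, with medians of -0.55 and -0.75 next to -0.09 and -0.07 over all genes. *Malat1*, retained in nuclear speckles, was at 4736 against 8200 CPM (ratio 0.578, 0.571 to 0.584) in vehicle cells and at 3824 against 8452 CPM (0.452, 0.448 to 0.457) in FAKi cells. *Neat1*, the scaffold of paraspeckles, had ratios of 0.681 and 0.541, *Meg3* 0.726 and 0.682, and *Snhg11* 0.567 in each library. The gap was also seen at matched depth. In cells with 20000 to 40000 UMIs the median cell held 125 and 69 *Malat1* UMIs in cluster 1 and 245.5 and 259 in cluster 0. Without the cells of fewer than 1000 detected genes, the log2 ratio of *Malat1*, averaged over the libraries, was -0.97, and it was -0.97 with them. With each cell at equal weight it was -0.72.

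The genes past 2-fold lower were *Colec12* and *Tsix*, and no gene was past this limit in both libraries (0 genes in each case) when cells were thinned to 5000 UMIs, given equal weight or compared with a pseudocount of 10 CPM. Their mean log2 ratios over the libraries were -1.51 and -1.26, and at equal weight -1.13 and -1.29. *Colec12*, a scavenger receptor, was at 12.6 against 27.1 CPM (ratio 0.466, 0.370 to 0.582) and at 5.25 against 23.8 CPM (0.221, 0.165 to 0.290). *Tsix*, the antisense partner of *Xist*, had ratios of 0.405 (0.285 to 0.562) and 0.338 (0.235 to 0.475). *Xist*, which overlaps it on the other strand, had ratios of 0.863 and 0.792, and how strand was used in counting is not given in the sources used here. The rest of the 10 lowest genes were of mixed kinds. *Hcar2*, a receptor for hydroxybutyrate, had 14 and 17 UMIs in cluster 1 against 117 and 92 in cluster 0 (ratios 0.376 and 0.415), and *Ankrd52*, an ankyrin repeat protein, had 7 and 11 against 61 and 81 (0.360 and 0.305). The predicted genes *Gm38190* and *Gm48027* had 4 and 9, and 11 and 17 UMIs in cluster 1. *Gm42937* had ratios of 0.652 and 0.362, and *Gm42941* 0.581 and 0.456. Of the mitochondrially encoded genes, *mt-Nd6*, the only coding gene of the light strand, was lowest at 0.552 and 0.434, while the 13 genes together had a median log2 ratio of -0.12 in each library.

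Genes of cell stress did not mark cluster 1. Immediate early genes, which are induced by dissociation, were lower in both libraries for 16 of 17 members, beside 48.7% of all genes, with medians of -0.36 and -0.34. *Fos* had a ratio of 0.758 in each library and *Jun* 0.692 and 0.635. Genes of protein folding and endoplasmic reticulum stress were lower in both libraries for 22 of 25, with medians of -0.13 and -0.16, and the chaperone *Hspa5* (BiP) had ratios of 0.831 and 0.738. Of all genes 19.4% were higher in both libraries, and so were 68 of 90 ribosomal protein genes (medians 0.10 and 0.14) and 43 of 68 nuclear genes of oxidative phosphorylation (0.05 and 0.10). These medians are small beside the 2-fold limit, and no member of these lists passed it in both libraries.

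**Figure D4:**
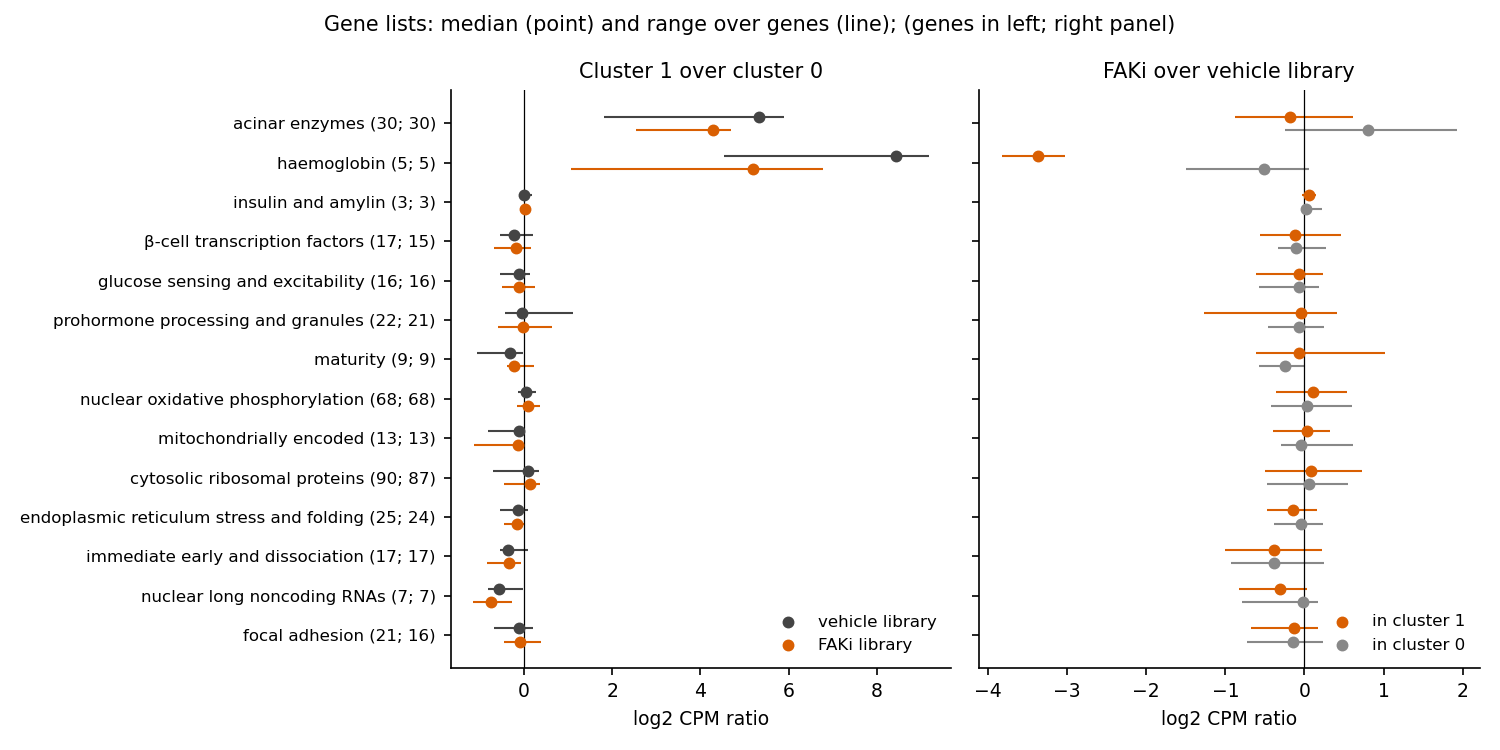
Median log2 CPM ratio of each gene list, for cluster 1 over cluster 0 in each library and for FAKi over vehicle within clusters 1 and 0, with lines for the range over genes and the number of genes measured in brackets. Acinar enzymes stand at 5.33 and 4.27 between the clusters, nuclear long noncoding RNAs at -0.55 and -0.75, and the β-cell lists between -0.31 and 0.03.

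The β-cell list was higher in bins of higher acinar load in both libraries, and the hormone genes showed no single order over the bins. Cells of each library were divided by acinar share into 4 bins of 76 to 77 (vehicle) and 136 to 137 (FAKi) cells, and the acinar genes were left out of the totals. From the lowest to the highest bin, the median log2 ratio of the 58 β-cell genes over cluster 0 was -0.21, -0.14, -0.04 and 0.05 in vehicle cells and -0.19, -0.12, -0.02 and 0.09 in FAKi cells. *Ins2* was at 403215, 423162, 400653 and 391743 CPM with vehicle, highest in the second bin, and at 439748, 427772, 399260 and 380032 with FAKi, lower in each bin than in the one before. CPM are shares of a total, so that lower values of such abundant genes raise those of all other genes. No median over all genes is given for the bins, and the part of this in the list medians was not tested. *Ins1* was at 152492, 162820, 154569 and 154104 CPM with vehicle and at 157347, 158832, 141729 and 137700 with FAKi. *Iapp* was at 42022, 40988, 39315 and 36731 CPM with vehicle and at 42987, 45391, 44121 and 45102 with FAKi. *Malat1* was lower than in cluster 0 in every bin, from -0.83 in the lowest to -0.70 in the highest in vehicle cells and from -1.46 to -0.63 in FAKi cells. The lowest bin had median acinar shares of 0.0850% and 0.329%, with median depths of 22949 and 30069.5 UMIs. The highest bin had 3.11% and 3.19%, with median depths of 10054 and 5597 UMIs, so that depth and load differed together across the bins.

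A few cells carried transcripts of other lineages. In the vehicle library, cluster 1 held 46466 UMIs of the haemoglobin list, of which 5 cells held 99.7%, and the highest cell held 10172. In the FAKi library, 1 cell held 7087 of 7142 such UMIs (99.2%). Immunoglobulin transcripts numbered 33873 in vehicle cluster 1, of which 3 cells held 99.9% with 16933, 14976 and 1936 UMIs, and 5 in FAKi cluster 1. *Igkc*, an immunoglobulin light chain, alone had 22002 and 4 UMIs in cluster 1 and 37 and 4 in cluster 0. Single cells also held most of the *Sst* (somatostatin, 574 of 788 UMIs), *Ppy* (pancreatic polypeptide, 1459 of 2144) and *Pyy* (peptide YY, 980 of 1433) in the vehicle library. In the FAKi library, 11 cells with at least 100 *Gcg* UMIs held 61.7% of 10230. The medians over all cells were at most 1 UMI for *Sst*, *Ppy* and *Pyy*, and 3 and 6 for *Gcg*. The sums named here thus lay mostly in 1 to 11 cells each.

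**Figure D5:**
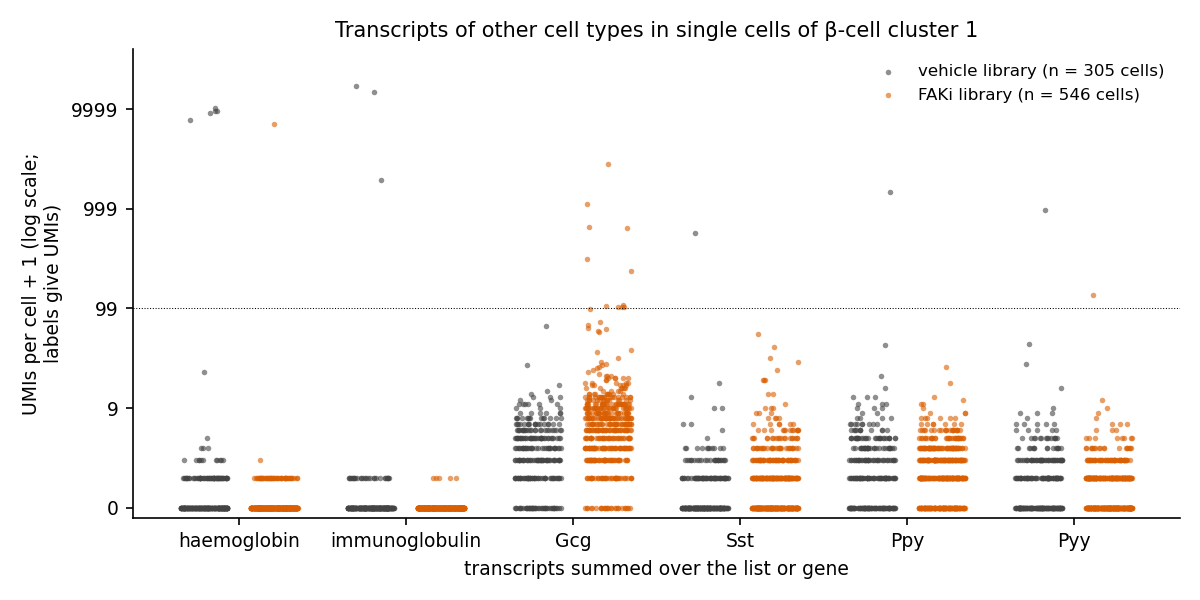
UMIs of the haemoglobin and immunoglobulin lists and of *Gcg*, *Sst*, *Ppy* and *Pyy* in each cell of β-cell cluster 1, by library (UMIs + 1 on a log axis, 1 point per cell), with a dotted line near 100 UMIs. In the vehicle library the highest cells reach 10172 haemoglobin and 16933 immunoglobulin UMIs, and in the FAKi library the highest cell reaches 7087 haemoglobin UMIs.

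Together, 10 vehicle and 12 FAKi cells of cluster 1 held at least 100 UMIs of the haemoglobin list, the immunoglobulin list or a hormone named here, compared with 1 cell of cluster 0 in each library. Without these cells 32 genes were past 2-fold higher and 2 lower, all of them among the 38 and 2 named above. The 6 genes lost were the haemoglobin list and *Cd24a*. The acinar medians without them were 5.34 and 4.16. Other lineages were represented by low sums. Endothelial markers had 67 and 55 UMIs in cluster 1, stromal markers 112 and 23, macrophage markers 166 and 245 with *Csf1r* at 0, B-cell markers 275 and 272 with *Ms4a1* at 0, and T-cell markers 93 and 1. Stromal markers were at 15.5 CPM against 4.24 in cluster 0 with vehicle and at 2.12 against 2.46 with FAKi, and T-cell markers at 12.9 against 1.02 and at 0.0921 against 0.0410. Their part in the results was not tested. Ductal markers were at 128 and 119 CPM in cluster 1 and at 120 and 111 CPM in cluster 0, with *Cftr* at 0 in cluster 1.

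An α-cell cluster with acinar transcripts is set beside these values, though its cells were mixed in hormone content. *Gcg* had a median of 202 UMIs a cell in vehicle cells of α-cell cluster 9 (lower quartile 3.5) and 1438.5 in FAKi cells, against 3731.5 and 4222.5 in α-cell cluster 5. The upper quartile of *Sst* in cluster 9 was 993.5 and 391 UMIs, while its 95th percentile in cluster 5 was 3 and 5. The ratios that follow therefore compare a mixed group of islet cells with α-cells. α-cell cluster 9 (87 vehicle and 168 FAKi cells) had a median acinar share of 3.85% and 3.18%, and its acinar enzyme genes stood at a median log2 ratio of 6.12 and 5.15 over α-cell cluster 5. The nuclear long noncoding RNAs had medians of -0.10 and -0.47 in that comparison and *Malat1* ratios of 0.821 and 0.716. β-cell cluster 10 had a median acinar share of 0.0273% and 0.0605%, with acinar genes at 3.39 and 2.10 over cluster 0 and *Malat1* at 1.39-fold and 1.43-fold. None of these differences between clusters was tested.

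The comparison of the FAKi and vehicle libraries within cluster 1 asked how gene expression differed 10 days after treatment. The 851 cells gave 7214314 UMIs with vehicle and 10857087 with FAKi. Of 8028 genes with at least 100 UMIs, 84 (1.05%) were more than 1.5-fold higher in the FAKi library and 161 (2.01%) lower. The split depended on the scaling, with 351 higher and 338 lower when cells were given equal weight, and 174 and 135 on totals without the 20 most abundant genes. In cluster 0 the same limits gave 84 of 10298 genes (0.816%) and 194 (1.88%). The libraries are the same for both clusters, so their values are set side by side and not counted as separate evidence. With 1 library per condition, treatment cannot be told apart from any other difference between the libraries.

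Acinar transcripts had no steady direction between the libraries in cluster 1. The 30 measured genes had a median log2 ratio of FAKi over vehicle of -0.18 from summed UMIs, and of 0.12 when each cell had equal weight. In cells with 10000 to 40000 UMIs the median was -0.62. In cluster 0 it was 0.81. *Prss2* was at 1265 CPM with vehicle and 1107 with FAKi (ratio 0.875, 0.851 to 0.899) in cluster 1, and 1.95-fold (1.76 to 2.17) higher in cluster 0. *Cpa1* had a ratio of 0.857 in cluster 1 and 1.81 in cluster 0. *Try5* and *Gp2* were higher, 1.53-fold (1.46 to 1.60) and 1.56-fold (1.21 to 2.03), and *Clps* was lower at 0.644 (0.622 to 0.667). A single statement that FAKi raised or lowered the acinar share of these cells is not carried by the data.

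The insulin genes and the median of the β-cell list differed little, while single β-cell genes were past 1.5-fold lower. *Ins2* was 1.04-fold and *Iapp* 1.10-fold the vehicle level, and *Ins1* 0.977. The 55 measured β-cell genes had a median log2 ratio of -0.06, beside -0.07 in cluster 0 and -0.01 over all genes in cluster 1. *Pdx1* had a ratio of 0.968 (0.889 to 1.05) and *Mafa* 0.847 (0.815 to 0.881), against 0.943 and 0.800 in cluster 0. *G6pc2* was lower, at 341 against 522 CPM (0.653, 0.624 to 0.684), and had a ratio of 0.672 in cluster 0. *Chgb* (chromogranin B) had ratios of 0.709 and 0.726, and *Prlr* (the prolactin receptor) 0.682 and 0.676. *Vgf*, a granule peptide, had ratios of 0.376 (0.273 to 0.516) and 0.850.

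Immediate early genes were lower in the FAKi library in both clusters. The medians of 17 genes were -0.39 in cluster 1 and -0.38 in cluster 0, with 14 of 17 lower in cluster 1, where 52.3% of all 8028 genes were lower. *Fos* was at 694 against 1132 CPM in cluster 1 (0.613, 0.594 to 0.633) and had a ratio of 0.613 in cluster 0. *Fosb* had ratios of 0.496 and 0.637. *Irs2*, the insulin receptor substrate used by β-cells, had ratios of 0.519 (0.427 to 0.630) and 0.410. *Mt1*, a metallothionein, had ratios of 0.663 and 0.595, and *Hspa5* 0.723 and 0.813.

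*Ptk2*, the gene of the inhibited kinase, was at 9.98 CPM (72 UMIs) in vehicle cluster 1 and 7.92 CPM (86 UMIs) in FAKi cluster 1, a ratio of 0.794 with an interval of 0.574 to 1.10 that includes 1. The inhibitor acts on the protein, so its transcript does not check the treatment. The 16 measured genes of focal adhesions had medians of -0.13 in cluster 1 and -0.14 in cluster 0. The nuclear long noncoding RNAs had -0.31 and -0.01, with *Neat1* at 0.564 and 0.710 and *Malat1* at 0.807 and 1.03.

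Among genes higher in FAKi cluster 1, *Lbp* (a secreted protein that binds bacterial lipopolysaccharide) stood first. It had 1 UMI with vehicle and 107 with FAKi in cluster 1, a ratio of 71.1 with a wide interval (12.5 to 2834). In cluster 0 it had 3 and 254 UMIs (ratio 78.7, 26.6 to 384). It was detected in 0.328% and 9.71% of cluster 1 cells at median depths of 20070 and 16908 UMIs, and in 13.4% and 4.80% of the endothelial, macrophage and B cells at 5646 and 4879 UMIs. Thinned to 5000 UMIs, the shares were 0% and 5.62% in cluster 1, where 0 of 266 cells allows up to 1.13%, and 14.5% and 6.33% in the reference cells. The reference cells were thus no measure of background for this gene.

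The other genes at the top were *Gcg* at 6.35-fold, with 61.7% of its FAKi UMIs in the 11 cells named above, and 8 genes at lower folds. *Gcg* was also 2.27-fold higher in cluster 0, and detected in more of the thinned reference cells with FAKi (93.0% against 56.5%), so that the higher level was not particular to cluster 1. The reference cells differed in make-up between the libraries, with 113 B cells among 785 vehicle cells and 9 among 333 FAKi cells. *Sytl3* (a synaptotagmin-like protein of vesicle transport) was 3.85-fold (2.21 to 7.18) higher, from 15 to 87 UMIs, and 6.54-fold in cluster 0. *Pgm2l1* (a glucose-bisphosphate synthase) was 3.60-fold (2.19 to 6.23) higher and 3.68-fold in cluster 0. *Nnat* (neuronatin, imprinted and needed for normal insulin secretion) was at 73.4 against 28.8 CPM, 2.55-fold (2.18 to 2.98), and 2.68-fold in cluster 0. *Pdyn* (prodynorphin) was 2.89-fold and 1.46-fold higher, *Fxyd6* (a regulator of the sodium pump) 2.52-fold and 2.04-fold, and *Th* (tyrosine hydroxylase, of catecholamine synthesis) 2.55-fold and 1.61-fold. *BC023719* and *Gm50353* were 2.40-fold and 2.40-fold higher, and 1.86-fold and 1.61-fold in cluster 0. *Npy* (neuropeptide Y) was 2.04-fold (1.80 to 2.32) higher in cluster 1 and 0.937 in cluster 0. At the unequal depths given above for *Lbp*, it was detected in 13.8% and 16.5% of cluster 1 cells and 0.764% and 2.40% of the reference cells, and thinned to 5000 UMIs in 7.52% and 11.7% against 0.893% and 3.80%.

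The 10 genes lowest in the FAKi library were all transcripts of plasma or red cells, namely *Igkc*, *Igha*, *Jchain*, *Ighm*, *Iglv1*, *Hbb-bt*, *Alas2*, *Hba-a1*, *Hbb-bs* and *Hba-a2*, nearly all of whose vehicle UMIs came from the cells described above. Without the cells of mixed content, 73 genes were higher, of which 69 were among the 84, and 162 lower, of which 138 were among the 161. The lowest were then *Iqcg*, *Slco1a6*, *Maff*, *Pim1* and *Vgf*, a group chosen after its values were seen. *Iqcg*, a calmodulin-binding protein of flagella, had 112 and 17 UMIs in cluster 1 and 301 and 38 in cluster 0. *Maff*, a small MAF factor, had 268 and 152 UMIs, and *Pim1*, a kinase induced by cytokines, 200 and 103. *Sst* and *Gcg* without these cells were at 1.34 and 1.31 on the log2 scale.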

How the data were processed

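Droplet scRNA-seq (Chromium 3′ v3.1) was made from islets of vehicle-treated and FAKi-treated mice, 1 library of 5 pooled mice each, on 4 lanes as read from the sample titles. The authors aligned the reads with Cell Ranger (mm10 in the submitters' processing notes), removed cells above 8% mitochondrial counts, and used Seurat 3.1, SCRAN, scanorama and Louvain clustering. They deposited a table of raw counts (UMIs) per gene and cell, and cell metadata with mitochondrial percent, library, cluster and cell type. Per the labels, 8832 vehicle and 8437 FAKi cells were used for sequencing, against 3776 and 3183 in the files. The table held 19945 gene names, of which 23 had been turned into dates and 2 were duplicates.

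Here, each gene's UMIs were added up within a cluster for 1 library and expressed as CPM. Genes with at least 100 UMIs over the groups compared were kept, and log2 ratios used a pseudocount of 1 CPM. Genes past 2-fold in both libraries (clusters) or 1.5-fold (FAKi over vehicle) were counted. With 1 library per condition, and with clusters drawn on the same cells, no test was made. Intervals are 95% (exact conditional for ratios, exact Poisson for rates), and cover counting error only. For detection, cells were thinned to 5000 UMIs (seed 0), and the upper limit for a count of 0 was 3 counts. Doublets were called with scrublet in scanpy 1.11.5 and kept, apart from 1 alternative. Make-up used acinar genes with at least 0.5% of acinar UMIs in every group. Python 3.11.15, numpy 2.4.6, pandas 2.3.3, scipy 1.17.1 and matplotlib 3.10.9 were used, and the calculations were tested on simulated data.

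The members and gene lists were chosen with earlier results of these data known. Named genes were the 5 markers, the 10 highest and 10 lowest ratios in each comparison (between clusters also outside the acinar, immunoglobulin and haemoglobin lists), and from each list the 4 most abundant members and those past the fold. Further list members were named for their known roles after their values were seen, as were the genes lowest without cells of mixed content. Alternatives were the weight of cells, the totals, the filter, doublets, mitochondrial share, depth, free RNA and pseudocount. Leaving out cells of mixed content and cells under 1000 detected genes was added after seeing the data.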

Additional observations from a re-analysis of the deposited data

Results flagged for a closer look

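Several log2 ratios of FAKi over vehicle had opposite signs in β-cell clusters 1 and 0, and none of these differences was tested. The acinar enzyme list had a median of -0.18 in cluster 1, which turned positive with cells at equal weight, and of 0.81 in cluster 0. Among its genes, *Prss2* was at -0.19 and 0.94, *Cpa1* at -0.22 and 0.80, and *Try4* at -0.58 and 0.84. The elastase genes *Cela1*, *Cela2a* and *Cela3b* were at -0.44, -0.41 and -0.49 in cluster 1 and at 0.89, 0.60 and 0.46 in cluster 0.

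The other islet hormones had medians of -1.06 and 0.77, with *Ppy* at -1.68 and 0.45 and *Sst* at -0.45 and 1.09. Most *Ppy* and *Sst* UMIs of vehicle cluster 1 lay in 1 cell each, and without the cells of mixed content the medians of this list were 0.61 and 0.64. *Malat1* was at -0.31 and 0.04, and *Gm42418* at 0.17 and -0.14.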

How the results depend on the processing

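No paired analysis was possible because the replicate numbers in the labels were read as sequencing lanes and the deposited table does not divide the cells by lane. The median log2 ratio of the acinar enzyme list over cluster 0, 5.33 (vehicle) and 4.27 (FAKi), kept its direction under every alternative run. It was 4.04 and 3.56 with a pseudocount of 10 CPM, 5.13 and 4.22 with a filter of 20 UMIs, 5.30 and 3.999 in cells of 10000 to 40000 UMIs, and 5.32 and 4.01 without doublets. In the FAKi library it was also 4.84 with cells at equal weight, 4.25 in cells of at least 1000 detected genes and 4.16 without cells of mixed content. After subtracting the mean UMIs per droplet of the reference cells it was 8.13 and 7.31, a direction fixed by the procedure. The reference cells held 32620 and 35329 acinar UMIs in 785 and 333 cells, and cluster 0 held 6066 and 12813 in 650 and 675 cells. Their mean thus exceeded that of cluster 0, and counts that fell below 0 were set to 0. For FAKi over vehicle in cluster 1 this list, at -0.18, turned to 0.12 with cells at equal weight, and was -0.62 at 10000 to 40000 UMIs, -0.82 after subtraction, -0.31 without cells of mixed content and -0.43 without doublets. In the FAKi library 1 reference cell held 15633 of the 35329 acinar UMIs behind the mean that was subtracted. The 84 genes higher in FAKi became 246 with a filter of 20 UMIs, 47 thinned, 351 at equal weight, 363 after subtraction, 12 with a pseudocount of 10 and 174 on totals without the 20 most abundant genes. The 161 lower became 439, 76, 338, 377, 52 and 135 under the same alternatives. The 2 genes lower in cluster 1 became 0 thinned, 0 at equal weight, 0 with a pseudocount of 10, 1298 after subtraction, 5 in cells under 5% mitochondrial counts and 7 without the 20 most abundant genes. *Hbb-bt* turned to -0.078 without cells of mixed content and -0.19 in cells of at least 1000 detected genes, where *Hba-a1* was at -0.044. The cause of these shifts was not tested, except where it lies in the procedure. A filter of 20 UMIs admits more genes and a larger pseudocount shrinks ratios by construction. Subtraction takes the same UMIs per droplet from shallow and deep cells of a library, and so a larger share from the shallower cluster 1. Of the values of named genes, 404 moved by less than their interval, 233 by more, and 3 turned. With 1 library per condition, no spread between mice could be had, and genes under 100 UMIs, among them most acinar factors, were beyond the depth.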
